A study of Homo sapiens with 4 samples.

Results

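The untreated SUM159 cells are the subject here: 1 RNA-sequencing library of the 4 in the series, taken alone. Its members were chosen by the treatment label, and nothing in the choice used a measured value. SUM159 is a triple-negative breast cancer line, that is, a line from a breast tumour without oestrogen receptor, progesterone receptor or amplified HER2. The study asked how the CDK4/6 inhibitor palbociclib and the sulfonamide indisulam, which makes the splicing factor RBM39 a substrate for degradation, act together in such cells. The other 3 libraries came from cells given 0.5 µM palbociclib, 2 µM indisulam or both for 10 days according to the sample labels, and the series' own text gives other doses and a shorter time for them. They were not analysed here. All 4 groups shared DMEM/F12 medium with 10% fetal bovine serum, 1% penicillin and streptomycin, 5 µg/ml insulin and 1 µg/ml hydrocortisone, so the untreated cells were not free of added hormones. The untreated group is 1 library of 1 established line, and the sources used here do not say whether technical duplicates were pooled in it. Every level below is therefore a description of 1 library, with no test and no replicate check.

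Epithelial cells hold to one another through E-cadherin, claudins and desmosomes, and carry keratin filaments. Mesenchymal cells lack these contacts, carry vimentin filaments and secrete a fibrous matrix, and the factors of the SNAI, TWIST and ZEB families are known to repress the epithelial genes during the transition from the former state to the latter. In the breast, luminal cells line the duct and use keratins 8, 18 and 19, while basal or myoepithelial cells beneath them use keratins 5 and 14, p63 and EGFR.

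The deposited values are raw counts of reads per gene. Levels are given as reads, as CPM, which is reads per 1000000 gene reads, or as TPM. TPM divides by the length of all exons of a gene before scaling, and ratios between genes are taken on this scale. Ranks by reads and limits in CPM carry no correction for length. Intervals are exact 95% Poisson intervals, and those of ratios are exact conditional intervals. They describe the error of counting alone, and the reads carried no molecular identifiers, so copies made by PCR count as separate reads. A gene at 3 reads or fewer, which is 0.239 CPM, was treated as not distinguishable from 0 at this depth.

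The library held 12555908 reads in 60279 listed genes. At least 1 CPM, or about 12.6 reads, was reached by 13928 genes, which is 23.1% of all genes listed. Among protein-coding genes 12278 of 19506 reached 1 CPM, or 62.9%, and 6106 had 3 reads or fewer, or 31.3%. These shares are the background against which the gene lists below are read. The lists were chosen with earlier results of these data known, so a share above or below the background is no test. The median over all protein-coding genes was 6.19 TPM, and over those at 1 CPM or more it was 20.3 TPM. At 100 CPM or more there were 1998 genes, 1972 of them protein-coding, and at 1000 CPM or more there were 93. Protein-coding genes held 97.3% of the reads. Long noncoding RNA genes held 1.17%, and 1080 of 13773 of them reached 1 CPM.

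**Figure D1:**
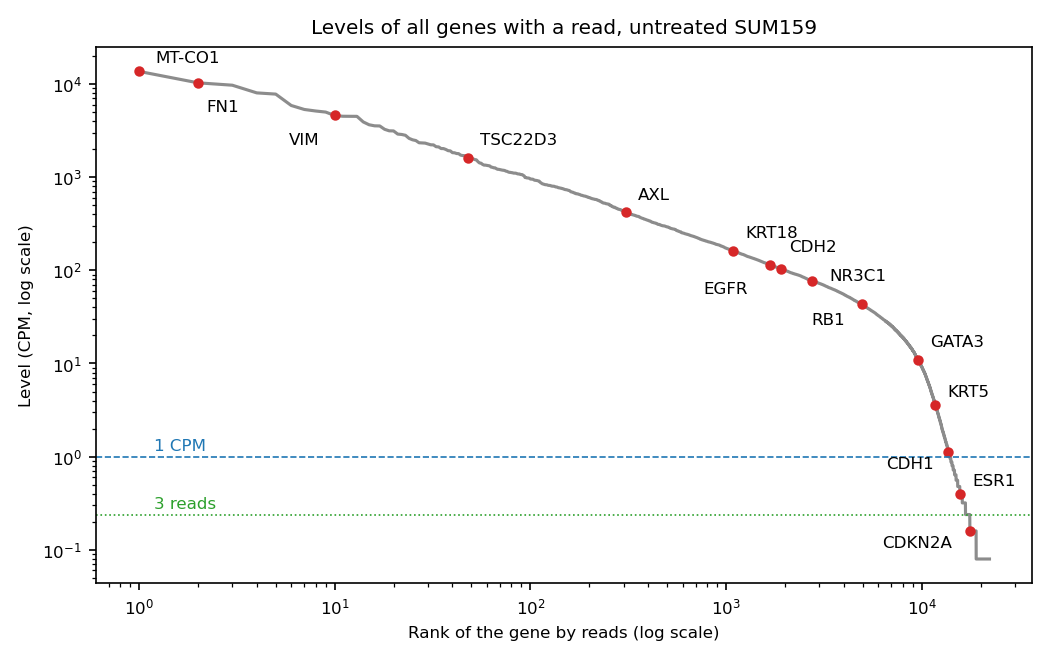
Level of every gene with at least 1 read in untreated SUM159 cells, in CPM on a log axis, against its rank by reads on a log axis, with 15 genes of the text marked in red. The dashed line is 1 CPM and the dotted line is 3 reads. The curve runs from MT-CO1 at 13677 CPM through EGFR at 115 CPM and bends down beyond the genes near 10 CPM.

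The 4 genes taken as markers of this line were all expressed, at very different heights. VIM, which encodes vimentin, had 57726 reads, or 4598 CPM (4560.1 to 4635), and its 3313 TPM (3286 to 3340.1) lay above 99.9% of protein-coding genes. KRT18, a keratin of simple epithelia, had 2038 reads, 162 CPM and 197 TPM (189 to 206), above 96.9% of protein-coding genes. CDH2, or N-cadherin, the cadherin of neural and mesenchymal cells, had 1306 reads, 104 CPM and 45.2 TPM (42.8 to 47.7). EGFR, the epidermal growth factor receptor, had 1446 reads, 115 CPM and 26.9 TPM (25.6 to 28.4), above 74.1% of protein-coding genes. Per length, VIM thus stood 16.8 times above KRT18 (16.1 to 17.6), and the mesenchymal and simple epithelial filament genes were expressed in the same library. The vimentin gene lies on chromosome 10, KRT18 next to KRT8 on chromosome 12, CDH2 on chromosome 18 and EGFR on chromosome 7. KRT18 and KRT8 have many processed copies, and they overlap on opposite strands in the annotation, and the strand setting of the counting is not given in the sources used here.

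The stretches of 150 bases just before the RefSeq start sites of VIM, EGFR, CDH2, FN1 and CCN2 are shown because these genes carry the account of the cells' identity, with FN1 and CCN2 added after their values were seen. They are printed 5′ to 3′ on the strand of the gene, from GRCh38.p14. Capitals mark matches, on either strand, to the GC box GGGCGG, the CCAAT box CCAAT, the TATA box TATAAA (gene strand only), the AP-1 motif TGANTCA and the TEAD motif GGAATG. Matches may overlap one another. VIM lies on the plus strand, chr10:17228091-17228240. EGFR has 2 RefSeq starts on the plus strand, an upstream one with chr7:55018867-55019016 before it and a downstream one with chr7:55109689-55109838. CDH2 has 2 RefSeq starts on the minus strand, and only the stretch before the upstream one is shown, chr18:28177131-28177280. FN1 is on the minus strand, chr2:215436069-215436218, and CCN2 on the minus strand, chr6:131951373-131951522.
VIM: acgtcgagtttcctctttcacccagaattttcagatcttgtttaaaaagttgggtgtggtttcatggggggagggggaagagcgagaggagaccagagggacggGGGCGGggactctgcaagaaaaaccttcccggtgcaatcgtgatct
EGFR upstream start: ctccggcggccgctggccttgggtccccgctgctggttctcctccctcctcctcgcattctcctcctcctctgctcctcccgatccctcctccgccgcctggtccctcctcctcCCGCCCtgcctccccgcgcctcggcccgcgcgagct
EGFR downstream start: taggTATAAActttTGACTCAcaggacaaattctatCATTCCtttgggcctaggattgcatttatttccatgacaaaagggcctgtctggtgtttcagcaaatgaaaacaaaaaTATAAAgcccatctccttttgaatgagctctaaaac
CDH2: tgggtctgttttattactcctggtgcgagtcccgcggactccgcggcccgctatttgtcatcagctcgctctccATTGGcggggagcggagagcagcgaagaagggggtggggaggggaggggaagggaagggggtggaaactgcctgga
FN1: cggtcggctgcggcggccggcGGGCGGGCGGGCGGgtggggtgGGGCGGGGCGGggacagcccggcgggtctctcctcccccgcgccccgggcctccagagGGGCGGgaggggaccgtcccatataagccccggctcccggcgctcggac
CCN2: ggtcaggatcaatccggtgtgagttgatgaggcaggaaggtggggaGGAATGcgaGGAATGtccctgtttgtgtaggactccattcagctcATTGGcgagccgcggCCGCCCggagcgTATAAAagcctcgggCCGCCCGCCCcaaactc

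These stretches differed in composition. The FN1 stretch was 83.3% G or C with 6 matches to the GC box, and the upstream EGFR stretch was 74.7% G or C with 1 match. The downstream EGFR stretch was 36.7% G or C, with 2 matches to TATAAA and 1 each to the AP-1 and TEAD motifs. The CDH2 stretch shown was 63.3% G or C, and the one before its downstream start was 45.3%, with 1 match each to the TATA box, the CCAAT box and the AP-1 motif. The CCN2 stretch held 2 TEAD matches close together, 3 GC boxes, 1 CCAAT box and 1 TATAAA. Over the windows of all 19493 nuclear protein-coding genes, from 250 bases before to 50 bases after the GENCODE start, the GC box was found in 61.8%, the CCAAT box in 36.1%, the TEAD motif in 11.3% and the AP-1 motif in 5.39%. Within 45 to 16 bases before the start, TATAAA was found in 4.01%. Those windows are longer than the printed stretches, and a match is a run of letters and not a bound site.

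The most abundant RNAs were mitochondrial transcripts, matrix and cytoskeletal genes, and the housekeeping genes of translation and glycolysis. MT-CO1, a subunit of cytochrome oxidase, led with 171724 reads, and FN1, which encodes the matrix protein fibronectin, came next with 129478 reads, or 10312 CPM (10256 to 10368). After the mitochondrial genes and the elongation factor gene EEF1A1 (97914 reads), the 30 genes with the most reads included VIM, COL6A3, a chain of collagen VI (56521 reads), GLUL, glutamine synthetase (56493 reads), THBS1, thrombospondin (41023 reads), TXNIP, a thioredoxin-binding protein (39517 reads), TGFBI, a matrix protein named for its induction by TGF-beta (36105 reads), and AKR1B1, aldose reductase (32787 reads). The 10 most abundant genes held 7.55% of all gene reads (exact binomial interval 7.54 to 7.56), the first 100 held 23.6%, and 782 genes held 50% of the reads.

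Per length the order was different, and short messages led. Among nuclear genes TMSB10, an actin-binding thymosin, had the highest level at 10829 TPM (10666 to 10994). The ferritin light chain FTL stood at 9981 TPM (9867 to 10096), GAPDH at 8304 TPM, the calcium-binding S100A6 at 7623 TPM and the ferritin heavy chain FTH1 at 6626 TPM. TIMP1, an inhibitor of metalloproteinases, stood at 4392 TPM, and IGFBP4, which binds insulin-like growth factors, at 4263 TPM. FN1, at 2234 TPM (2222 to 2246), was below VIM on this scale at 0.674 of its level. The many copies of genes such as FTH1, FTL, GAPDH and the ribosomal protein genes are nearly identical in the genome, and 6.46% of the tallied reads were set aside as not uniquely aligned, so their levels are uncertain.

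Mitochondrially encoded genes held 5.93% of gene reads (5.91 to 5.94), of which 13 mRNAs made up 5.02 percentage points. They ran from MT-CO1 at 33082 TPM and MT-CO2 at 32103 TPM down to MT-ND6 at 481 TPM, the only one of them encoded on the light strand. MT-CO1 and MT-CO2 differed by a ratio of 1.03 (1.02 to 1.04). MT-ATP6 overlaps MT-ATP8 and MT-CO3, and MT-ND4 overlaps MT-ND4L, and reads that fall in both genes of such a pair may not have been assigned. The ribosomal protein genes, 83 in number, held 6.57% of the reads, and 81 reached 1 CPM.

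Mesenchymal genes were present almost throughout. Of the 30 mesenchymal markers 27 reached 1 CPM, or 90.0% against 62.9% of protein-coding genes. Of the 30, 19 exceeded 100 CPM, a level that 1972 of 19506 protein-coding genes reached. The list's median was 88.2 TPM against 6.19 TPM over all protein-coding genes. The list was chosen with earlier results of these data known, so its distance from the background is a description and not a test. After VIM and FN1 came S100A4, a calcium-binding protein of motile cells (1560.0 TPM, 1517 to 1604), SPARC, a matrix glycoprotein (1143 TPM, 1126 to 1160.1), COL6A3 (780.4 TPM) and COL1A1, a chain of collagen I (743 TPM). COL1A2, whose product joins that of COL1A1 in the same trimer, stood at 32.2 TPM (30.4 to 34.1), so the COL1A1 level was 23.1 times higher (21.7 to 24.5). The contractile genes were lower, with TPM2 at 378 TPM, MYL9 at 96.1 TPM, TAGLN at 26.9 TPM and the smooth muscle actin gene ACTA2 at 17.9 TPM. The fibroblast genes POSTN and FAP stood at 22.6 and 12.1 TPM.

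Some mesenchymal genes were at or near 0. CDH11, the cadherin of osteoblasts and many fibroblasts, had 0 reads, under the limit of 3 reads or 0.239 CPM, with an exact interval up to 0.294 CPM. CNN1, calponin of smooth muscle, also had 0. Between the neighbouring small proteoglycans, DCN (decorin) had 2927 reads and 67.2 TPM while LUM (lumican) had 6 reads and 0.667 TPM. The DCN level was 100.7 times that of LUM, with an interval of 46.2 to 275 that the 6 reads make wide, and 190.2 times by the longest transcript.

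The transcription factors of the epithelial-mesenchymal transition were expressed in 9 of 10 cases, or 90.0%, with none above 100 CPM. TWIST1 led at 58.9 TPM (53.2 to 65), followed by SNAI2, also called Slug, at 54.1 TPM (49.8 to 58.6) and SNAI1, or Snail, at 45.1 TPM (39.8 to 51). Each of these 3 overlapped its neighbour in counting interval. TWIST2 and ZEB1 followed at 26.5 TPM (22.9 to 30.5) and 23.5 TPM (21.8 to 25.4), and their intervals overlapped too. ZEB2 was lower, at 6.41 TPM (5.89 to 6.96), and ZEB1 exceeded it 3.67 times (3.28 to 4.11), or 1.86 times when the longest transcript replaced the union of exons as the length. FOXC2 and PRRX1 stood at 13.6 and 7.06 TPM, TCF4 at 4.86 TPM, and GSC (goosecoid) had 0 reads.

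The factors that keep epithelial cells epithelial were near 0. Of 11 transcription and splicing factors, 3 reached 1 CPM, or 27.3% against 62.9% of protein-coding genes. KLF5 was the only one of them well above that limit, with 222 reads and 17.9 TPM, while EHF had 25 reads and GRHL1 had 14. GRHL2, a grainyhead factor that activates E-cadherin, and ESRP1, the splicing regulator of epithelial isoforms, had 1 read each, and OVOL2 had 0. The upper bound of the interval for GRHL2 was 0.444 CPM.

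Junction and membrane genes of epithelia were split. Of 28 such genes 18 reached 1 CPM, or 64.3%, close to the background of 62.9%, and the median was 2.29 TPM. The plaque protein gene JUP (plakoglobin) stood at 115 TPM, the desmosomal cadherin DSG2 at 54.6 TPM, the tight junction scaffold gene TJP1 at 27.3 TPM, the desmosomal PKP3 at 21.4 TPM and the junctional adhesion molecule F11R at 18.8 TPM. The adhesion molecules that define an epithelium were far lower. CDH1, or E-cadherin, had 14 reads, 1.12 CPM (0.61 to 1.87) and 0.684 TPM, and EPCAM also had 14 reads. CLDN7 had 24 reads, CLDN4 had 4 and CLDN3 had 2, while CLDN1, at 112 reads and 9.17 TPM, was the highest claudin of the list. The desmocollin gene DSC2, the polarity gene CRB3 and MARVELD3 had 0 reads. Per length CDH2 stood 66 times above CDH1, with an interval of 39.2 to 121, or 112 times by the longest transcript.

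**Figure D2:**
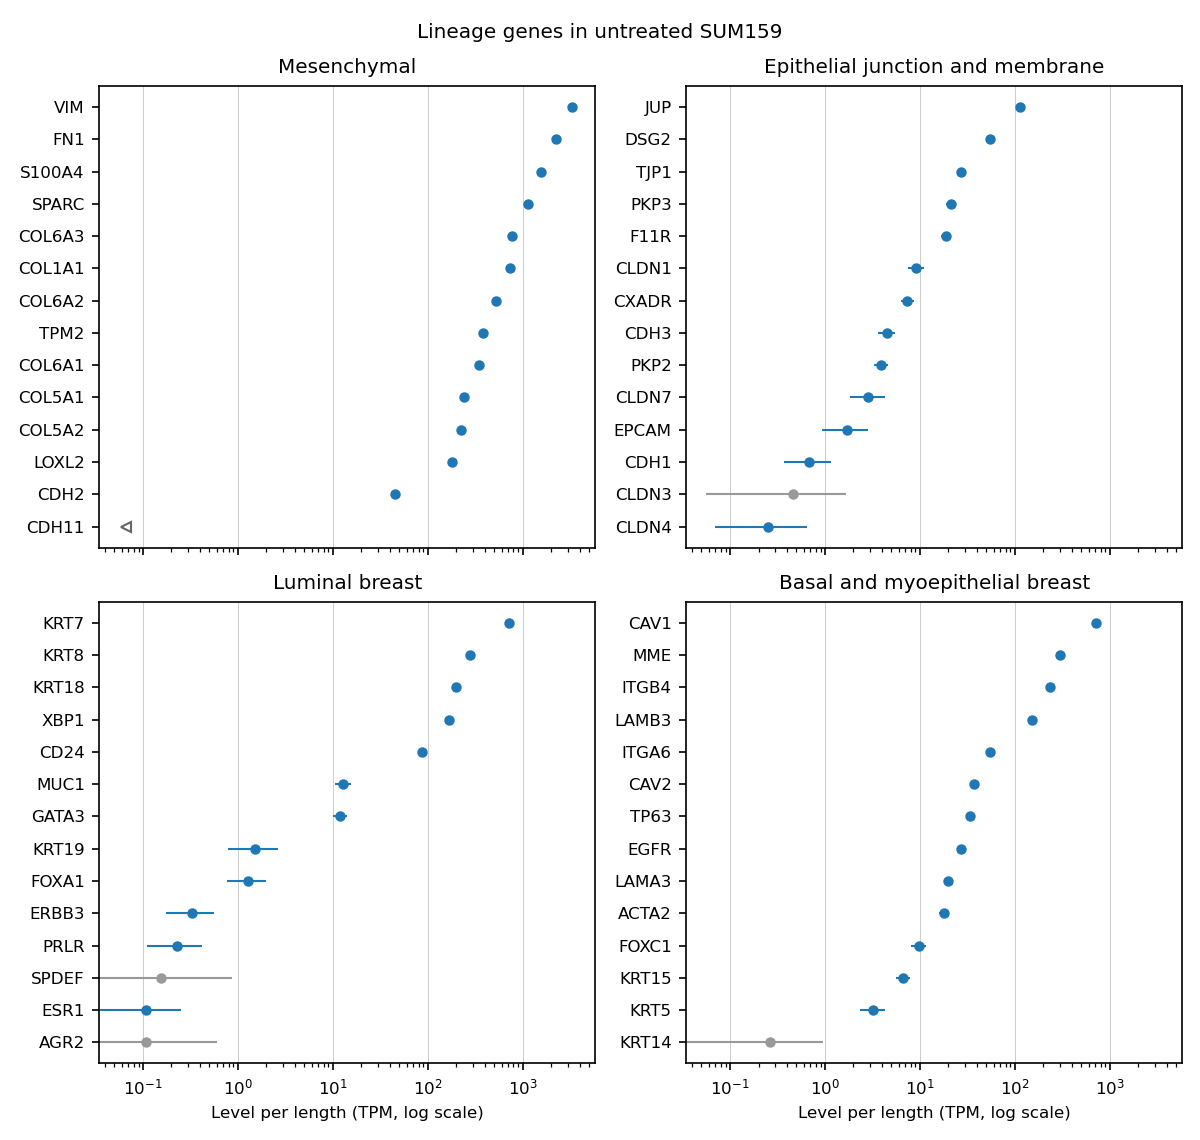
Levels of the 14 members shown from each of 4 gene lists in untreated SUM159 cells, in TPM on a log axis, with exact 95% Poisson intervals as bars. Blue points have more than 3 reads, grey points 1 to 3 reads, and the open triangle stands at the level of 3 reads for a gene with 0 reads. Each panel holds defining genes of its list and then members with high levels, and not every member is shown. Mesenchymal points lie mostly above 100 TPM, with CDH11 at 0, whereas CDH1, EPCAM and the claudins CLDN3, CLDN4 and CLDN7 lie near or below 3 TPM.

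Luminal breast genes were expressed in 10 of 21 cases, or 47.6% against 62.9% of protein-coding genes, and the highest were keratins. KRT7 led with 9551 reads and 709 TPM (695 to 724), KRT8 had 6506 reads and 281 TPM (274 to 288), and KRT18 stood at 197 TPM. KRT19, the other keratin of luminal cells, had 12 reads and 1.53 TPM (0.788 to 2.67), so KRT8 exceeded it 184 times (105 to 356). XBP1, a factor of the secretory pathway, stood at 166 TPM, and the sialoglycoprotein gene CD24 at 86.3 TPM. The luminal transcription factors were lower. GATA3 had 137 reads and 12 TPM (10.1 to 14.2), and FOXA1 had 19 reads and 1.28 TPM. ESR1, the oestrogen receptor, had 5 reads, or 0.398 CPM (0.129 to 0.929), PGR, the progesterone receptor, had 1 read, and TFF1, a well-known oestrogen target, had 0.

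Basal and myoepithelial genes were expressed in 20 of 25 cases, or 80.0% against 62.9% of protein-coding genes. The highest were CAV1 (caveolin, 709 TPM), MME (the surface peptidase CD10, 298 TPM), and the genes of the hemidesmosome and its laminin, ITGB4 (233 TPM), LAMB3 (153 TPM), ITGA6 (54.4 TPM) and LAMA3 (19.6 TPM). TP63, the factor of basal cells, had 851 reads and 33.8 TPM (31.6 to 36.2). The basal keratins were low. KRT5 had 45 reads and 3.23 TPM (2.36 to 4.33), KRT14 had 2 reads and KRT6B had 0. Per length KRT18 stood 61 times above KRT5 (45.4 to 83.9). SOX10, a factor of neural crest and of a subset of basal tumours, had 0 reads. Over the whole keratin family 12 of 55 genes reached 1 CPM, or 21.8%, and 4 exceeded 100 CPM.

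Milk and secretory genes were nearly all absent, with 2 of 10 at 1 CPM or more. AZGP1, a secreted lipid-binding glycoprotein, had 430 reads and 49.4 TPM, and ANKRD30A had 31 reads. The casein genes CSN1S1, CSN2 and CSN3 and the lactalbumin gene LALBA had 0 reads.

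Among nuclear receptors, the ligand-activated and orphan transcription factors that bind hormones and lipids, 29 of 48 reached 1 CPM, or 60.4%, close to the background of 62.9%. RXRB, the common partner of many receptors, stood at 93.4 TPM (88.2 to 98.8), the thyroid hormone receptor THRA at 82.1 TPM (78.6 to 85.8) and the clock repressor NR1D1 at 73.0 TPM (67.4 to 78.8). THRA was 1.13 times NR1D1 (1.03 to 1.23), and these genes overlap on opposite strands. RXRB also overlaps a gene on the opposite strand, SLC39A7 with 3753 reads, so its first place is uncertain. NR2F6, ESRRA and PPARD followed at 68.3, 64.4 and 53.6 TPM. NR3C1, the glucocorticoid receptor, had 967 reads and 31.4 TPM (29.4 to 33.4), and NR3C2, the mineralocorticoid receptor, had 203 reads and 9.13 TPM, so NR3C1 was 3.44 times higher (2.95 to 4.02). The oestrogen receptor genes ESR1 and ESR2 had 5 and 4 reads. There were 9 nuclear receptors at 0 reads, among them NR5A2, NR1I2 and RXRG.

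Receptor tyrosine kinases, the surface receptors that growth factors activate, were expressed in 29 of 58 cases, and 11 exceeded 100 CPM. AXL, the receptor for GAS6, was the highest at 5302 reads and 307 TPM (299 to 315), 11.4 times the level of EGFR (10.7 to 12.1), or 7.7 times by the longest transcript. The platelet-derived growth factor receptor genes PDGFRA and PDGFRB stood at 129 TPM (125 to 133) and 105 TPM (100.5 to 109), with PDGFRA 1.24 times higher (1.18 to 1.30). ROS1, whose gene is silent in most tissues, stood between them with 3365 reads and 112 TPM (109 to 116). Its order relative to PDGFRB turned when the longest transcript was used as the length, with a PDGFRB to ROS1 ratio of 0.929 by the union of exons and 1.11 by the longest transcript. EPHA2, an ephrin receptor, stood at 98.1 TPM (92.9 to 103) and MET, the receptor of hepatocyte growth factor, at 78.0 TPM (74.5 to 81.6).

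The receptors of the EGF family were unequal. ERBB2, or HER2, had 1792 reads and 51.6 TPM (49.2 to 54), 1.91 times EGFR (1.78 to 2.05). ERBB3 had 13 reads and ERBB4 had 0. FGFR1 had 1727 reads and 29.8 TPM, while FGFR2 had 0 reads, FGFR3 had 1 and FGFR4 had 6. The insulin receptor INSR and the insulin-like growth factor receptor IGF1R stood at 11.8 TPM (10.7 to 13) and 13.6 TPM (12.5 to 14.6), with a ratio of 0.872 (0.77 to 0.987). In all, 12 of the 58 kinases had 0 reads, including KIT, FLT1, NTRK2, NTRK3 and ROR2. The ligands HGF, PDGFA and PDGFC, of MET and the PDGF receptors, stood at 11.5, 28.4 and 67.4 TPM.

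**Figure D3:**
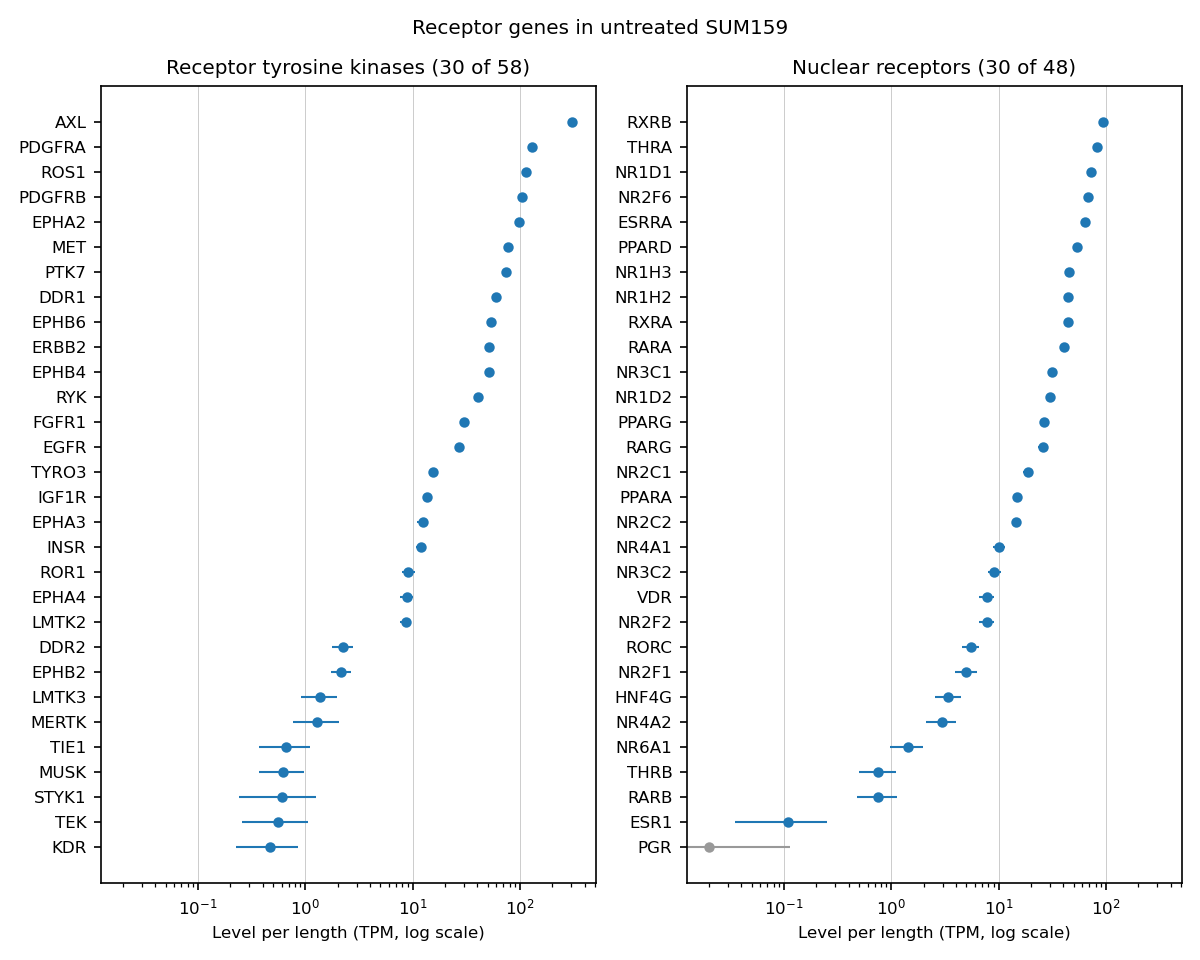
Levels of receptor tyrosine kinases and nuclear receptors in untreated SUM159 cells, 30 members of each list in order of TPM on a log axis, with exact 95% Poisson intervals. Blue points have more than 3 reads and the grey point, PGR, has 1. AXL stands apart at 307 TPM on the left, while 10 nuclear receptors lie between 40 and 94 TPM on the right and ESR1 lies at 0.108 TPM.

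Receptors for cytokines, TGF-beta, death ligands, Notch and Wnt were expressed in 44 of 50 cases, or 88.0% against 62.9% of protein-coding genes. The highest were TNFRSF1A, the main receptor of tumour necrosis factor (422 TPM), IL13RA1 (322 TPM), TGFBR2 (282 TPM, 276 to 289), the oncostatin M receptor OSMR (268 TPM, 262 to 275), and IL6ST (237 TPM, 233 to 242), the signalling chain shared by the interleukin 6 family. TGFBR1, whose product pairs with that of TGFBR2, stood at 6.69 TPM (5.75 to 7.74), 42.2 times lower (36.4 to 49.2). IL6ST was 7.78 times above IL6R (7.21 to 8.4), and OSMR 2.29 times above LIFR (2.21 to 2.38). NOTCH2 led its family at 48.7 TPM, against 36.5 TPM for NOTCH3 and 7.94 TPM for NOTCH1. SMO, the transducer of hedgehog signals, and the Wnt receptor gene FZD10 had 0 reads.

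Among 36 G protein-coupled receptors for peptides, lipids and amines 23 reached 1 CPM, or 63.9%, close to the background of 62.9%. The thrombin receptor F2R stood at 519 TPM (507 to 532) and its relative F2RL2 at 316 TPM (306 to 327), a ratio of 1.64 (1.58 to 1.71), with F2RL1 at 61.2 TPM. CNR1, the cannabinoid receptor best known from the brain, had 2590 reads and 121 TPM, and the lysophosphatidic acid receptor LPAR1 had 697 reads. The chemokine receptor gene CXCR4 had 7 reads, and LGR5 and GPER1 had 0.

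Surface and stem-cell markers were expressed in 26 of 28 cases, or 92.9% against 62.9% of protein-coding genes. CD63, a tetraspanin of vesicles, stood at 816 TPM, the fibronectin receptor chain ITGA5 at 547 TPM, and CD44, the hyaluronan receptor, had 10238 reads and 304 TPM (299 to 310.3). CD44 exceeded CD24 by 3.53 times (3.3 to 3.78), and by 5.27 times with the longest transcript as the length. The nucleotidase gene NT5E, or CD73, stood at 150 TPM, and the checkpoint ligands CD274 and PDCD1LG2 at 15.1 and 18.3 TPM. PROM1 and ALDH1A1 had 0 reads each, and ALDH1A3 had 62 reads and 3.45 TPM.

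Secreted factors and proteases were expressed in 41 of 54 cases, or 75.9% against 62.9% of protein-coding genes. A few were among the strongest genes of the library. TIMP1 stood at 4392 TPM (4334 to 4451), THBS1 at 1331 TPM (1318 to 1344) and the gelatinase gene MMP2 at 1068 TPM (1052 to 1084). TIMP1 exceeded MMP2 by 4.11 times (4.03 to 4.2), and MMP2 exceeded its membrane-bound activator MMP14 by 6.52 times (6.25 to 6.8). CCN2 and CCN1, matricellular genes known as targets of the YAP and TEAD pathway, stood at 918 TPM (897 to 939) and 757 TPM. DKK1, a Wnt antagonist, stood at 646 TPM, and TGFB1 at 115 TPM, 2.23 times TGFB2 (2.06 to 2.42). TGFB1 overlaps HNRNPUL1, with 3871 reads, on the opposite strand, so its level is uncertain.

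The inflammatory cytokines were low. CXCL8, or interleukin 8, had 113 reads and 13 TPM, IL6 had 23 reads and 1.58 TPM, IL1B had 23 reads, and CSF2 and CCL2 had 1 read each, while CXCL5 had 0. CCL5 was higher, with 600 reads and 131 TPM, and CSF1 stood at 223 TPM. MMP1 had 21 reads, MMP3 had 5 and MMP9 had 1.

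Several genes known to respond to glucocorticoids, but not all of those listed, were high in these cells, which were kept in hydrocortisone. Of the 16 genes of glucocorticoid and insulin response 15 reached 1 CPM, or 93.8%. TSC22D3, or GILZ, had 20311 reads and 1217 TPM (1200.5 to 1234), FKBP5, a chaperone of the receptor, had 14895 reads and 416 TPM (409.7 to 423), DUSP1, a phosphatase of MAP kinases, stood at 387 TPM, and KLF9 at 157 TPM. HSD11B1, the enzyme that makes cortisol from cortisone, had 389 reads and 76.4 TPM (69 to 84.4), whereas HSD11B2, which does the reverse, had 4 reads. ZBTB16 stood at 14.5 TPM and SGK1 at 11.1 TPM, below the median of 20.3 TPM over protein-coding genes at 1 CPM or more. No library without hydrocortisone was analysed here, and the part of the hormone in these levels was not tested. On the insulin side, INSIG1 stood at 243 TPM, IRS1 at 22.6 TPM and IRS2 at 9.21 TPM.

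A list of targets and effectors of the study's drugs, which also held CDK inhibitor genes and MTAP, was expressed in 20 of 23 cases, or 87.0%. The 3 others were CDKN2A, CDKN2B and MTAP. CDK4, a target of palbociclib, had 1515 reads and 145 TPM (138 to 153), and CDK6, the other target, had 354 reads and 8.59 TPM (7.72 to 9.54), so CDK4 was 16.9 times higher (15.1 to 19.1), or 26.8 times by the longest transcript. Their partner CCND1 stood at 134 TPM (128 to 139.8), CCND3 at 79.0 TPM and CCND2 at 9.67 TPM. CCND1 was 1.7 times CCND3 by the union of exons and 0.792 of it by the longest transcript, so the order of these cyclins was not settled. RB1, the tumour suppressor that the kinases phosphorylate, had 540 reads and 24.9 TPM (22.9 to 27.1). RBM39 had 4297 reads and 107 TPM (103 to 109.8), and DCAF15, the ubiquitin ligase receptor through which indisulam acts on it, had 223 reads and 22.5 TPM (19.6 to 25.7). DDB1, the adaptor of that ligase, stood at 108 TPM, CUL4A at 43.9 TPM and DDA1 at 21.5 TPM. DCAF15 overlaps PODNL1 and CDK4 overlaps TSPAN31 on the opposite strand.

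Among the genes of CDK inhibitors on the list, the pair on chromosome 9 was near 0. CDKN2A, which encodes p16, had 2 reads, CDKN2B, which encodes p15, had 1, and their neighbour MTAP, an enzyme of methionine salvage, had 1. CDKN1A, or p21, stood at 76.9 TPM and CDKN1B, or p27, at 10.7 TPM. All 21 proliferation genes reached 1 CPM, with the mitotic cyclin CCNB1 at 203 TPM (193 to 213), the topoisomerase TOP2A at 188 TPM (182 to 194), PCNA at 107 TPM, the proliferation marker MKI67 at 36.5 TPM (34.7 to 38.3) and E2F1 lowest at 8.5 TPM.

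The low reads around CDKN2A extended along chromosome 9. This stretch was chosen after its values were seen, and no test was made of it. From HACD4 to DMRTA1, at 20999509 to 22455740 in the hg38 build, 21 of 22 protein-coding genes had 3 reads or fewer and 18 had 0. KLHL9, a ubiquitin ligase adaptor gene, was the exception, with 73 reads and 5.81 CPM. Of these 22 genes 16 are type I interferon genes, which most unstimulated cells keep silent, and all 16 had 0 reads. The other 6 are HACD4 and DMRTA1 at 0, MTAP and CDKN2B at 1, CDKN2A at 2, and KLHL9. The edges were not sharp. On one side lay FOCAD with 47 reads, then MLLT3 and SLC24A2 with 1 each, ACER2 with 5 and RPS6 with 17746. On the other side lay ELAVL2 with 24 reads, IZUMO3 with 0, TUSC1 with 56, CAAP1 with 156 and PLAA with 562. The noncoding MIR31HG, also on chromosome 9, had 0 reads. Whether the DNA of the stretch is present in the line was not tested.

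HOX genes, which record position along the body axis, were expressed in 15 of 39 cases, or 38.5% against 62.9% of protein-coding genes. Those expressed lay mainly in the HOXC and HOXA clusters. HOXC10 led with 520 reads and 65.1 TPM (59.7 to 71), 2.51 times HOXC13 (2.13 to 2.96), and HOXC4 and HOXA10 followed at 15.6 and 10.7 TPM. The HOXC6 gene overlaps HOXC4 on the same strand, and its 99 reads are uncertain. In the HOXB cluster HOXB13 had 34 reads and HOXB7 had 17, and in the HOXD cluster HOXD8 had 38. There were 14 HOX genes at 0, among them HOXD9 to HOXD12 and HOXB3 to HOXB5. The antisense RNA HOTAIR, from the HOXC cluster, had 94 reads and 8.97 TPM.

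**Figure D4:**
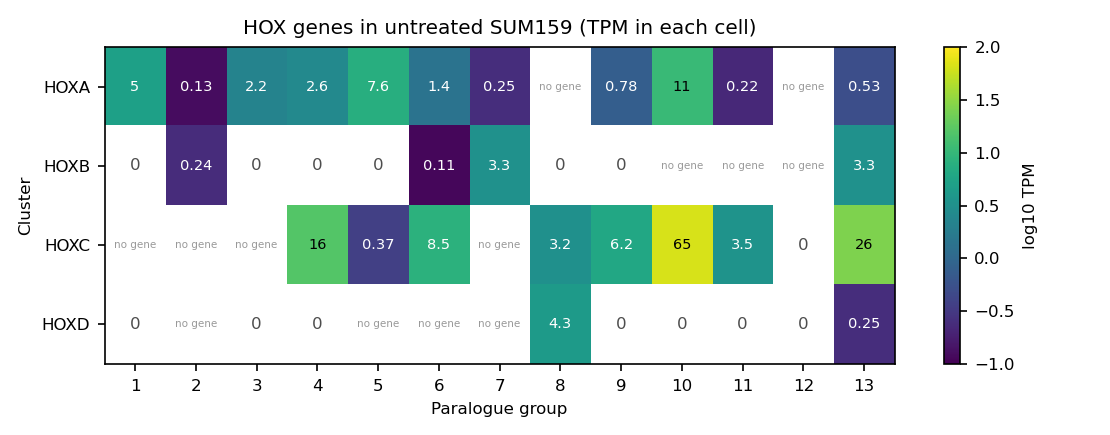
Level of each HOX gene in untreated SUM159 cells, in TPM, with clusters in rows and paralogue groups in columns. The colour follows log10 TPM, and a white cell holds either a gene with 0 reads or no gene. The HOXC row holds the highest values, 65 at group 10 and 26 at group 13, and the HOXB and HOXD rows are mostly 0.

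Cancer-testis antigens, genes usually silent outside the germ line, were expressed in 8 of 22 cases, or 36.4% against 62.9% of protein-coding genes. Some were expressed strongly. PAGE5 had 1158 reads and 457 TPM (431 to 485), MAGEC2 had 1294 reads and 193 TPM (182 to 204), MAGEA12 stood at 125 TPM and MAGEA6 at 61.9 TPM. CTAG1B and PRAME had 0 reads and MAGEA1 had 1. Many of these genes have near-identical copies on chromosome X, and reads that align to several copies were not counted, so levels of single copies are uncertain.

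Markers of other tissues were mostly at or near 0, with exceptions in each list. Of 11 blood markers 2 reached 1 CPM, CD14 (116 reads) and PTPRC, or CD45 (153 reads, 2.94 TPM), while CD3E had 0 reads and SPI1 had 1. The 11 together summed to 22.3 CPM. Of 5 endothelial markers PECAM1 (191 reads) and ERG (78 reads) reached 1 CPM, with VWF at 6 reads, CDH5 at 5 and CLDN5 at 0. Of 5 neural and glial markers SNAP25 did (39 reads), with GFAP and RBFOX3 at 1 read. Of 10 liver, lung, gut and prostate markers 1 did, and ALB, CDX2, KLK3 and SFTPC had 0. Of 10 melanocyte, muscle and adipocyte markers PLIN1 (84 reads) and PMEL (27 reads) did, and MYOD1 and MLANA had 0. PLIN1 overlaps PEX11A on the same strand and PMEL overlaps CDK2, so these 2 are uncertain. Of 5 pluripotent and germ cell markers POU5F1 did (69 reads), a gene with many processed copies and a neighbour, TCF19, on the opposite strand, while NANOG had 0 and SOX2 had 1.

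Several gene families were mostly at or near 0. Of 410 olfactory receptor genes 401 had 3 reads or fewer against 31.3% of all protein-coding genes, and 4 reached 1 CPM. The numbers at 3 reads or fewer were 93 of 94 keratin-associated protein genes, 40 of 40 beta-defensin genes, 18 of 24 bitter taste receptor genes and 13 of 13 interferon alpha genes. Claudins reached 1 CPM in 5 of 24 cases and potassium channel subunits in 25 of 96. Numbered zinc finger genes did so in 415 of 514 cases, or 80.7%. Collagen chains, at 32 of 44 or 72.7%, and integrin chains, at 21 of 30 or 70.0%, were nearer to the 62.9%. The collagen chains held 1.13% of all reads. By chromosome, the share of protein-coding genes at 1 CPM or more ran from 52.9% on X, 53.2% on 21 and 54.9% on 11 to 68.1% on 2.

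**Figure D5:**
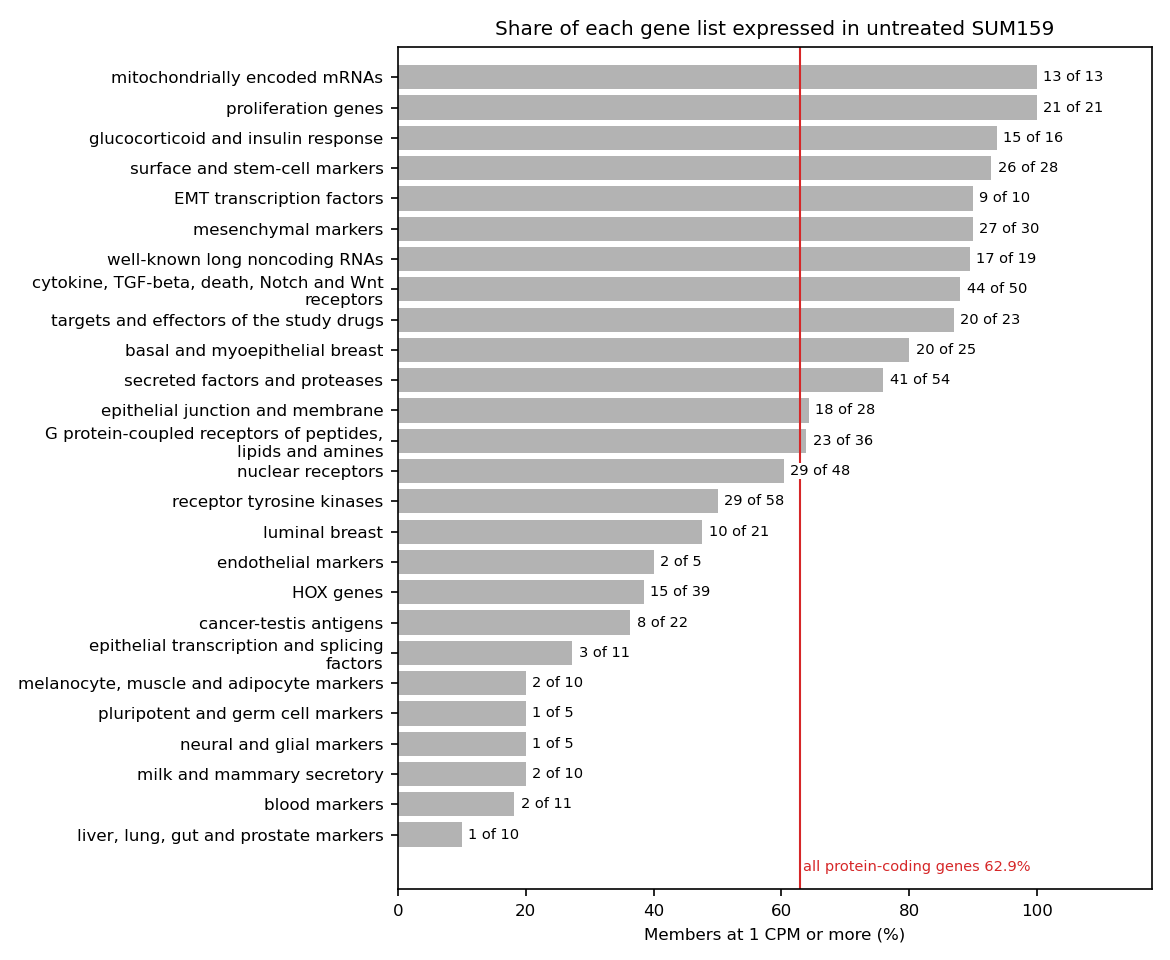
Share of the members of each gene list at 1 CPM or more in untreated SUM159 cells, in percent, with the count beside each bar. The red line is the share of all protein-coding genes, 62.9%, and is no reference for the list of long noncoding RNAs. The lists were chosen with earlier results of these data known. Mesenchymal markers (27 of 30) and EMT transcription factors (9 of 10) lie above the line, and luminal breast (10 of 21), milk (2 of 10) and other-tissue lists lie below it.

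Of 19 well-known long noncoding RNAs 17 reached 1 CPM, where 1080 of 13773 long noncoding RNA genes did. NEAT1 and MALAT1, nuclear RNAs, had 10134 and 5682 reads and stood at 132 and 162 TPM. NORAD stood at 264 TPM, GAS5 at 221 TPM and the imprinted H19 at 116 TPM. TERC, the telomerase RNA, had 0 reads. The library was made from poly(A) RNA and can miss RNA without a poly(A) tail. The level of TERC is therefore not known, and those of NEAT1 and MALAT1 are uncertain.

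Promoter composition differed between level classes. Among nuclear protein-coding genes with 3 reads or fewer, 6106 in number, the median window was 56.0% G or C with a CpG observed-to-expected ratio of 0.362. In the 7565 genes from 10 to 100 CPM these were 66.7% and 0.871, in the 1877 genes from 100 to 1000 CPM 67.0% and 0.875, and in the 83 genes at 1000 CPM or more 65.0% and 0.865. The GC box was found in 38.1%, 76.2%, 78.8% and 75.9% of these classes. The ETS motif CCGGAAG was found in 4.67% of the class at 3 reads or fewer, 22.3% from 10 to 100 CPM, 17.2% from 100 to 1000 CPM and 14.5% at 1000 CPM or more. The NRF1 motif, searched as CGCATGCG, was found in 0.835%, 4.59%, 3.73% and 0% of the same classes, the last being 0 of 83 windows. A longer pattern with 1 free base, which need not contain CGCATGCG, was found in 14.5% of that class. The CCAAT box was about as frequent in every class, from 32.5% to 41.0%.

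The TATA box followed another course. TATAAA between 45 and 16 bases before the start was found in 8.06% of the class at 3 reads or fewer, in 1.07% from 10 to 100 CPM and in 13.3% at 1000 CPM or more, which is 11 of 83 windows. A C at the start followed by 4 pyrimidines, as in the messages of the translation machinery, was found in 2.88% of the class at 3 reads or fewer and in 31.3% of that at 1000 CPM or more, where ribosomal protein genes made up 28.9% of the genes. These are shares over genes in 1 library, and genes are not replicates.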

How the data were processed

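The untreated SUM159 cells are represented by 1 deposited library, a stranded poly(A) library with single-end reads. According to the submitters' processing notes, the authors used TopHat2 2.1 with the GRCh38 build and HTSeq to make the deposited counts, which are whole reads per Ensembl gene. The annotation release and the strand setting are not given in the sources used here. The file was used as deposited. The 12555908 gene reads set the depth, and the separate tallies of not uniquely aligned (6.46% of 13904242), ambiguous (2.63%) and featureless (0.615%) reads stayed out of it. Of 60279 genes 56104 matched GENCODE release 44 by identifier, the 4175 others holding 0.207% of reads. TPM used union exon lengths. Exact Poisson, binomial and conditional ratio intervals were computed with Python 3.11.15 and scipy 1.17.1 and tested on simulated data. Promoter windows were read from hg38 at GENCODE canonical starts, and printed stretches from RefSeq on GRCh38.p14. With 1 library per condition no test was made, and the treated libraries were not used. The gene lists, members, promoter windows and motifs were chosen with earlier results of these data known. Named genes were the 30 with the most reads, the 20 protein-coding genes with the highest TPM, the 4 markers, the 6 members with the highest TPM and the defining members of each list, and every member at 1 CPM in lists with fewer than 6 of them. Other genes in the text were chosen after their values were seen. Some genes that this rule names are not reported here, though counts over lists include them. Alternatives were the level limit, the length, the denominator and the low-count filter.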

Additional observations from a re-analysis of the deposited data

How the results depend on the processing

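Of 128 alternatives to 35 results, 28 moved the value and 100 did not. A count of genes was taken as moved beyond 1.5 times, a share or percentile outside its main counting interval, and a rank at any change, so some moves are small. With no filter, 22191 genes had at least 1 read, against 13928 at 1 CPM. The share of the 10 most abundant genes was 5.76% without mitochondrially encoded genes, 6.82% with the tallies in the denominator and 19.3% on the TPM scale. The mitochondrial share was 5.35% with the tallies and 21.2% on the TPM scale. At 0.5 CPM, 5 epithelial transcription and splicing factors and 2 liver, lung, gut and prostate markers passed. At 5 CPM the counts were 1 epithelial factor, 11 epithelial junction genes, 1 milk gene, 0 neural and glial markers, 1 melanocyte, muscle and adipocyte marker and 5 HOX genes. With more than 3 counts as the limit, 6 epithelial factors, 4 endothelial, 2 neural and glial and 3 liver, lung, gut and prostate markers passed. At 1 TPM, 0 neural and glial and 2 liver, lung, gut and prostate markers did. By the longest transcript VIM lay at the 99.9 percentile of protein-coding genes, EGFR at 76.5 and CDH2 at 88.8. By CPM the percentiles were 99.95 for VIM, 91.5 for EGFR, 90.4 for CDH2 and 94.5 for KRT18, and RXRB ranked 3 among nuclear receptors. A longer NRF1 pattern (GCGC, 1 free base, TGCGC) was searched before the reported form, which was taken after its values were seen. The longer pattern contains the reported CGCATGCG only when the free base is A. It was found in 2.36% of windows at 3 reads or fewer and in 13.7% from 10 to 100 CPM. At 1000 CPM or more it was found in 14.5%, where the reported form had none. No paired analysis was possible because 1 library was used and no test was made. Depth limits statements on genes under 3 reads, and with 1 library the spread between cultures is unknown.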
